A study of Mus musculus with 24 samples.

Results

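The genes described here are 36 genes of the cell division cycle, measured in mouse macrophages of 2 sources on 4 days of sampling. They were chosen by name, as a list of mitosis and cell cycle genes, and their rows were found through the Ensembl gene identifiers in the count table. All 36 were found among its 47643 rows, and all 36 passed the low-count filter of the test. The list holds cyclins and cyclin-dependent kinase 1, transcription factors of the cycle, enzymes of DNA synthesis, mitotic kinases, kinetochore and spindle proteins, proteins of cytokinesis and of protein degradation at anaphase, and general proliferation markers.

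A dividing cell passes from G1 through DNA synthesis to mitosis, driven by cyclins that are made and destroyed in turn and that switch on cyclin-dependent kinases. D-type cyclins answer to growth factors in G1, E-type cyclins open S phase through the release of E2F transcription factors, and A- and B-type cyclins with CDK1 drive mitosis. Genes of the late cycle are largely silent in resting cells and are induced together when cells divide. Many macrophages of adult tissues renew themselves by local division, whereas macrophages grown out of bone marrow tend to leave the cycle as they mature.

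One set of libraries is from macrophages grown out of mouse iPSCs (induced pluripotent stem cells), called iPSC-derived here, and the other from bone marrow-derived macrophages. In each source the day 0 cells had not been co-cultured and the others had spent 3, 6 or 12 days in co-culture, with 3 replicates a group that the series' design text calls independent. This gives 8 groups and 24 libraries. Which cells the macrophages were co-cultured with is not named in the labels, nor are the iPSC line and the mouse strain. Day 0 libraries are the only ones without co-culture, so time and co-culture cannot be told apart in any change from day 0. Values below are listed in the order of replicates 1, 2 and 3. A level is given as CPM, the gene's counts scaled to the same total in every library, and genes are compared with each other as TPM, which also divides by exon length.

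Library totals ran from 5839316 to 11805478 counts. Macrophage markers fixed as a list of 10 genes (among them Csf1r, Adgre1 and Cd68) were all detected in every group, with the lowest summed levels at iPSC-derived day 0. They summed to 7196 to 9977 CPM there and to 10891 to 31624 CPM at the later iPSC-derived days, and to 40368 to 41921 CPM at bone marrow-derived day 0 and 29906 to 36073 CPM at the later days of that source. The 2 replicate 3 libraries of iPSC-derived day 0 and day 12 stood apart from the others of their groups in the genes described here, and counts that rest on them are given without them as well. Replicate 3 was also the highest of its group for 26 genes at iPSC-derived day 6 and 29 at bone marrow-derived day 6. At iPSC-derived day 3 it was the highest for only 1. At bone marrow-derived day 0, replicate 2 was the highest for 16 genes, replicate 1 for 8 and replicate 3 for 11. Every change is a log2 fold change ± its standard error (SE), estimated and tested with edgeR's quasi-likelihood method, and a gene is said to have risen or fallen only where its p-value, adjusted by the Benjamini-Hochberg method over 15000 genes, was below 0.05. In bulk samples, fewer cells of a type and less RNA per cell cannot be told apart.

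The cell cycle genes were high at opposite ends of the 2 time courses. The 36 genes summed to 1369, 1328 and 2128 CPM in iPSC-derived libraries at day 0 and to 832, 796 and 522 CPM at day 3. Their sum was 743, 673 and 1005 CPM at day 6 and 857, 720 and 1781 CPM at day 12. All 3 day 0 libraries lay above all libraries of days 3 and 6, while day 12 overlapped day 0 through replicate 3 alone.

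In bone marrow-derived libraries the same sum was 569, 612 and 554 CPM at day 0 and 429, 461 and 441 CPM at day 3, then 1011, 939 and 1334 CPM at day 6 and 2326, 2452 and 2468 CPM at day 12. The day 0 sums are mostly 1 gene, Cenpa, which was singled out after its values were seen. The other 35 genes summed to 164, 212 and 179 CPM at day 0, 370, 416 and 387 CPM at day 3, 948, 886 and 1271 CPM at day 6 and 2252, 2365 and 2376 CPM at day 12. Without Cenpa the 4 days did not overlap, and each day lay above the one before.

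The mean level was highest in bone marrow-derived day 12 cells for 27 of the 36 genes and in iPSC-derived day 0 cells for 7, namely Aurka, Ccnb1, Ccnb2, Dlgap5, Pimreg, Plk1 and Ube2c. The remaining 2 were Cenpa, highest in bone marrow-derived day 0 cells, and E2f1, highest in bone marrow-derived day 6 cells. For 30 genes the lowest mean of the 8 groups was that of bone marrow-derived day 0. The groups in which all other genes were highest or lowest were not counted.

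**Figure D1:**
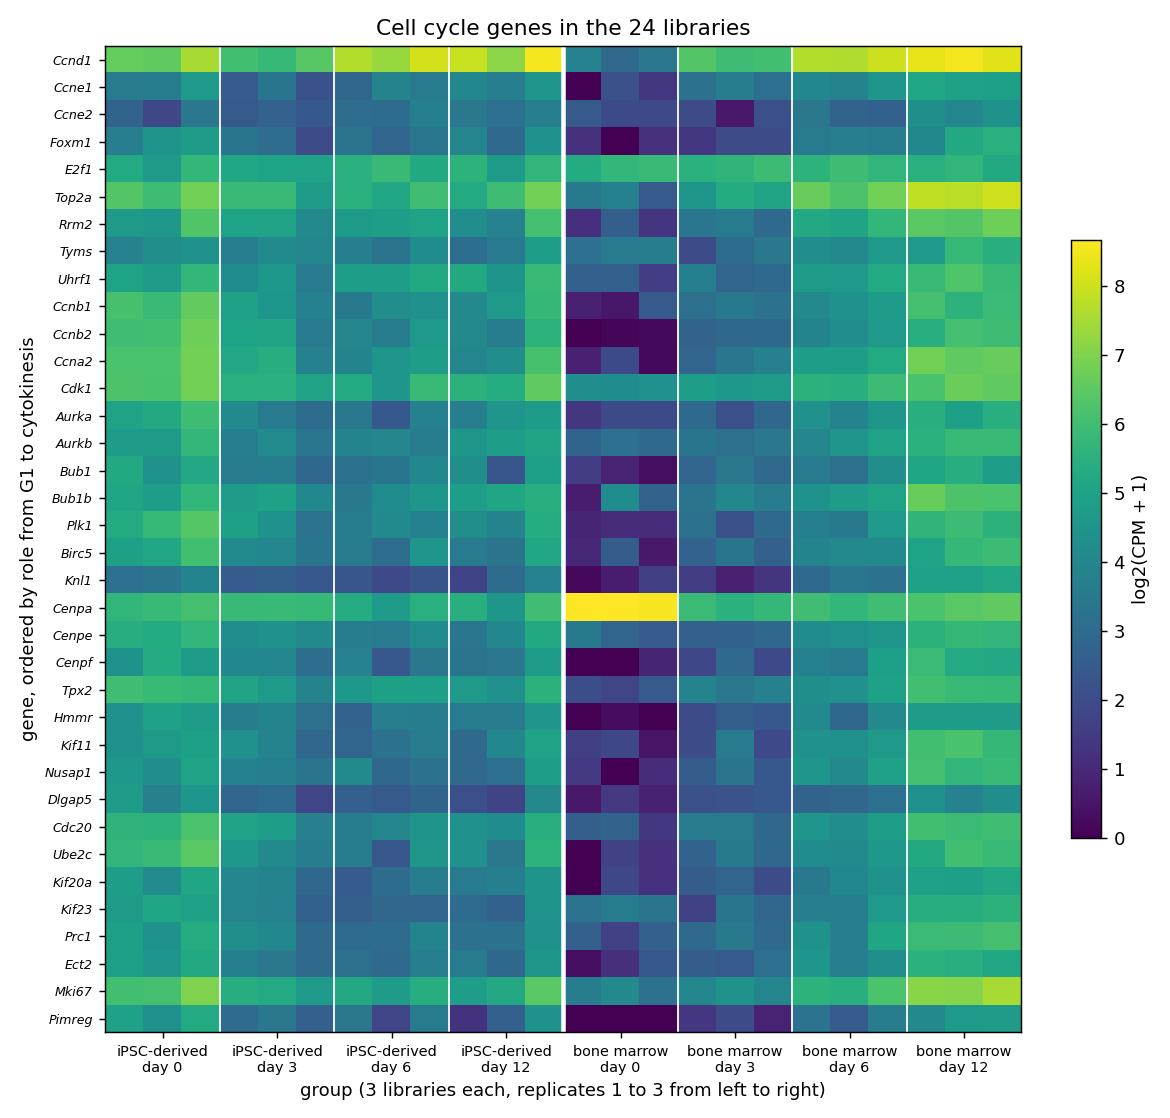
Levels of the 36 genes as log2(CPM + 1) by colour, with genes in rows ordered by their role from G1 to cytokinesis and the 24 libraries in columns. The bone marrow-derived columns brighten from day 0 to day 12 in nearly every row except Cenpa, whose 3 brightest cells are at day 0, and E2f1, while the iPSC-derived columns are brightest at day 0 and in replicate 3 of day 12.

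On the length-corrected scale the order of the genes also differed between groups. At bone marrow-derived day 0, Cenpa led with 179.9 ± 6.45 TPM (SD, n = 3), followed by E2f1 at 42.05 ± 7.67 and Cdk1 at 14.3 ± 0.767 TPM. At bone marrow-derived day 12 the leading gene was Ccnd1 at 197 ± 19.4 TPM, ahead of Ccnb2 at 101 ± 18.8 and Cdc20 at 91.8 ± 8.39 TPM. The gap between Ccnb2 and Cdc20 is smaller than the SD of Ccnb2 and larger than that of Cdc20, while Cdc20 and the next gene, Rrm2, at 90.5 ± 12.2 TPM, lie within each other's SD. The iPSC-derived day 0 cells were led by Ccnb2 at 138 ± 43.99 TPM, with Cdc20 at 82.4 ± 21.1, Plk1 at 72.3 ± 26.8 and Ccnd1 at 72.2 ± 29.7 TPM behind it, all 3 within each other's SD. At days 6 and 12 the leading gene of iPSC-derived cells was Ccnd1, at 124 ± 22.98 and 144 ± 69.6 TPM.

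The make-up of the summed TPM of the 36 genes held less of the mitotic cyclins and more of Ccnd1 at days 6 and 12 than at day 0 in iPSC-derived cells. Ccnb1, Ccnb2, Ccna2 and Cdk1 together made up 26.4 ± 0.292% of it at day 0, 15.8 ± 1.90% at day 6 and 17.04 ± 2.58% at day 12 (SD, n = 3). Ccnd1 alone made up 6.02 ± 0.637% at day 0, 22.6 ± 1.90% at day 6 and 19.7 ± 3.82% at day 12. The day 0 libraries did not overlap those of day 6 or day 12 in either share, and replicate 3 of day 12 was no exception. In bone marrow-derived cells the Ccnd1 share was 1.90 ± 0.686% at day 0, 18.04 ± 0.758% at day 6 and 12.4 ± 1.16% at day 12, and that of the 4 mitotic genes was 5.39 ± 0.680%, 15.04 ± 0.932% and 17.6 ± 0.715%. The day 0 shares of this source rest on Cenpa, which alone made up 58.8 ± 3.84% of the sum there. Without Cenpa the Ccnd1 share was 4.73 ± 2.14%, 18.8 ± 0.874% and 12.7 ± 1.17% at these days, and that of the 4 mitotic genes was 13.2 ± 1.89%, 15.7 ± 0.904% and 18.05 ± 0.758%. These shares are descriptions of the libraries and were not tested.

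In bone marrow-derived cells, 16 of the 36 genes rose by day 3 and 1 fell, against 11.9% of all tested genes called higher and 6.61% called lower. By day 6, 30 rose and 1 fell (12.7% and 6.89% of all genes), and by day 12, 34 rose and 1 fell (14.7% and 9.08%). The median log2 fold change of the 36 was 1.58 at day 3, 3.02 at day 6 and 4.27 at day 12, beside 0.04 over all genes at each of these days. Cenpa was the 1 gene that fell, at each day. E2f1 was the 1 gene without a call at day 12. Of the rises, 30 of 30 at day 6 and 34 of 34 at day 12 were called whichever of the 6 libraries was left out, and 13 of 16 at day 3. For 34 genes all 3 day 12 libraries lay above all 9 earlier bone marrow-derived libraries. The share of all tested genes that separated in this way was not counted. The 3 comparisons share their day 0 libraries.

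Steps within the bone marrow-derived co-culture gave fewer calls. From day 3 to day 6, 7 genes rose and 0 fell (0.413% and 0.433% of all genes, 0.847% in either direction): Aurka, Aurkb, Ccnd1, Cenpe, Knl1, Mki67 and Uhrf1, with a median over the 36 genes of 1.55. None of the 7 was called in all 6 fits that left out 1 library, and the count fell to 2 without day 3 replicate 1, 1 without day 3 replicate 2, and 0 without day 3 replicate 3 or day 6 replicate 3. From day 6 to day 12 only Tpx2 rose and 0 fell (0.147% and 0.373% of all genes), with a median of 1.32. That count was 0 in 5 of the 6 fits that left out 1 library, and 1 without day 6 replicate 3. With only the 2 groups of a step in the fit, 30 genes were called for the first step and 33 for the second. In the main edgeR fit, 29 genes were higher and 0 lower at an unadjusted p below 0.05 for the first step. For the second step 31 were higher and 0 lower.

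In iPSC-derived cells nearly all calls were falls. By day 3, 15 fell and 0 rose (8.14% of all genes lower, 11.2% higher), and by day 6, 25 fell and 0 rose (11% and 14.3%). By day 12, 8 fell and 1 rose (10.7% and 14%). The median log2 fold change was -1.06 at day 3, -1.47 at day 6 and -0.72 at day 12, beside 0.04, 0.09 and 0.04 over all genes. The 8 that fell by day 12 were Ccnb2, Cdc20, Cenpe, Dlgap5, Kif23, Plk1, Prc1 and Tpx2, and Ccnd1 was the 1 that rose. These 3 comparisons share their day 0 libraries.

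The iPSC-derived counts depended on single libraries. At day 3 the count of falls was 3 without day 0 replicate 3, 3 without day 3 replicate 3 and 9 without day 3 replicate 1 or replicate 2, and only Aurka and Tpx2 were called in all 6 fits that left out 1 library. At day 6 it was 14 without day 0 replicate 3, 16 without day 6 replicate 1 and 15 without day 6 replicate 2. Aurka, Aurkb, Ccnb1, Ccnb2, Cdc20, Cenpe, Dlgap5, Kif23, Plk1, Prc1, Tpx2 and Ube2c, 12 genes, were called in all 6 of those fits. At day 12 it was 18 without day 12 replicate 3, 0 without day 12 replicate 1 or replicate 2, 1 without day 0 replicate 3 and 4 without day 0 replicate 1 or replicate 2. With both replicate 3 libraries left out together it was 6 at day 3, 18 at day 6 and 10 at day 12. No gene kept its day 12 call in every such fit.

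Within the iPSC-derived co-culture, Ccnd1 was the 1 gene that rose from day 3 to day 6 and 0 fell (1.06% of all genes higher, 1.21% lower). From day 6 to day 12 edgeR called 0 genes in either direction (0.740% and 0.500% of all genes, 1.24% together) although the median was 0.63 and 10 genes were higher, with 0 lower, at an unadjusted p below 0.05. Without the replicate 3 libraries of day 0 and day 12 that median was 0.09. DESeq2 called 1 gene for this step.

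**Figure D2:**
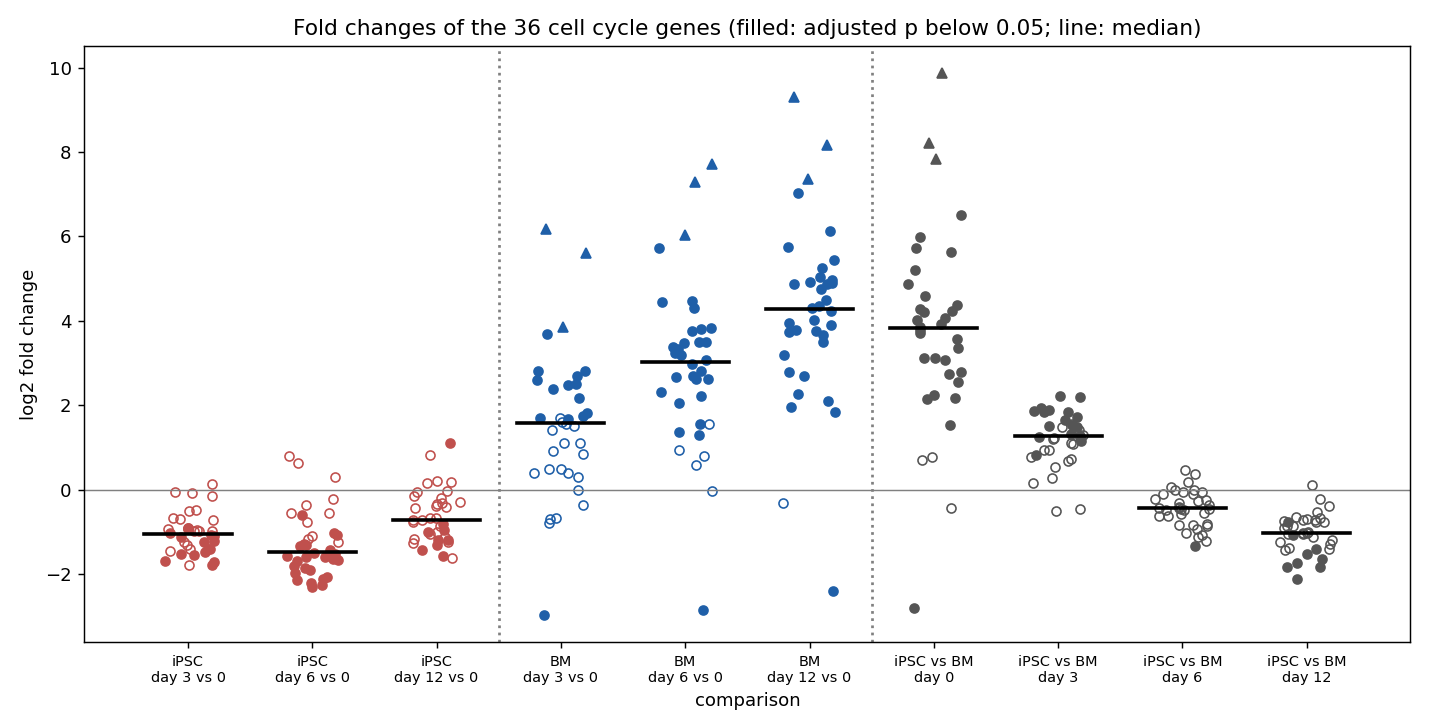
Log2 fold changes of the 36 genes from edgeR in the 6 comparisons with day 0 and the 4 comparisons between sources, with 1 point a gene, filled where the adjusted p was below 0.05, and a line at the median. Triangles mark Ccnb2, Hmmr and Pimreg wherever bone marrow-derived day 0 is the reference, where they are drawn at the log2 of their count ratio or lower bound. The medians are 1.58, 3.02 and 4.27 in bone marrow-derived cells and -1.06, -1.47 and -0.72 in iPSC-derived cells.

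Between the sources at day 0, 32 genes were higher and 1 lower in iPSC-derived cells (18.9% and 17.1% of all genes), with a median log2 difference of 3.82. All 32 were called whichever library was left out. For 33 genes every iPSC-derived day 0 library lay above every bone marrow-derived one. How many of all tested genes separated in this way at day 0 was not counted, so the 33 have no background to be read against. At day 3, 18 genes were higher and 0 lower (8.94% and 8.92%) with a median of 1.26. That count was 7 without iPSC-derived replicate 1 or replicate 2, and 9, 11 and 8 without bone marrow-derived replicate 1, 2 and 3. Ccnb2, Cdc20, Cenpe, Hmmr and Plk1 were called in all 6 of these fits.

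At day 6, 1 of the 36 genes (2.78%), Kif23, was called lower in iPSC-derived cells and 0 higher. Both shares were below those of all genes (6.23% and 6.99%). The day 6 count was 0 in 5 of the 6 fits that left out 1 library. At day 12, 9 genes were lower in iPSC-derived cells and 0 higher (4.74% and 5.03% of all genes, 9.77% in either direction): Cenpa, Cenpe, Kif11, Kif23, Knl1, Mki67, Nusap1, Prc1 and Top2a, with a median of -1.03. This count was 21 without iPSC-derived replicate 3, 1 without iPSC-derived replicate 1 or replicate 2, and 5 and 4 without bone marrow-derived replicates 2 and 3. Prc1 was the 1 gene called in all 6 fits.

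The difference between the sources in the change from day 0 was itself tested as an interaction, iPSC-derived minus bone marrow-derived. It was negative for 27 genes at day 3, 32 at day 6 and 33 at day 12, and positive for 1 gene each time, Cenpa (11.5%, 11.1% and 11% of all genes negative; 9.03%, 8.62% and 9.07% positive). The median differences were -2.75, -4.32 and -4.97 on the log2 scale. The negative calls held in every fit that left out 1 of the 12 libraries for 21 of 27, 31 of 32 and 32 of 33 genes. At day 6, 23 genes fell in iPSC-derived and rose in bone marrow-derived cells. All 23 passed the test of the difference, which adds little, since genes called in opposite directions in the same fit are likely to pass it. Such opposite calls were not counted over all genes.

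The proximal promoters of these genes are shown because most of the genes rose together in bone marrow-derived cells. Genes of G2 and mitosis often carry CCAAT boxes, bound by NF-Y, and the cell cycle genes homology region TTTGAA or its variant TTTAAA, bound by the MuvB complexes that silence them in resting cells. RefSeq windows of 300 bases, 250 before to 50 after the gene's start (GRCm38.p6), were given for 27 of the 36 genes, and both strands were searched. CCAAT was found in 21 of the 27 (77.8%), against 41.1% of 27025 genes with such a window. TTTGAA was found in 17 (63.0% against 20.2%) and TTTAAA in 10 (37.0% against 14.9%). CCAAT together with TTTGAA or TTTAAA was found in 20 (74.1% against 12.2%). TTTNNCGC, a pattern that holds sites for E2F, was found in 3 (11.1% against 5.93%). Matches of different motifs may overlap. A match is a run of letters, not a measured binding site. Members with no window in the table were Aurkb, Ccna2, Ccnd1, Ccne2, Dlgap5, Foxm1, Kif20a, Pimreg and Tpx2.

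The 250 bases before the start are printed 5′ to 3′ on the gene's strand for 6 genes whose stretch held no annotated exon base, chosen to span the sizes of the bone marrow-derived rise, from Ccnb2 to Tyms, and several roles. Capitals mark matches to any of these motifs on either strand.
Ccnb2 (chr9:70421555-70421804, minus strand): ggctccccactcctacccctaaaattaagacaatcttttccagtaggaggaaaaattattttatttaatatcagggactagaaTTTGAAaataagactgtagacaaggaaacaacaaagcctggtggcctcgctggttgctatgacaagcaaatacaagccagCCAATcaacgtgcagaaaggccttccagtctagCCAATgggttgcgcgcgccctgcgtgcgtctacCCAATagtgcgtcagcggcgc
Cenpf (chr1:189688087-189688336, minus strand): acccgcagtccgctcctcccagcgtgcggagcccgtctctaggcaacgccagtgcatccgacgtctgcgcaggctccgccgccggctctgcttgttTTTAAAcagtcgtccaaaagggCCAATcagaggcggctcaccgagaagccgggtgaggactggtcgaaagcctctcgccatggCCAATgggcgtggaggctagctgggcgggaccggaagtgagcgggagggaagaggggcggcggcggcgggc
Kif11 (chr19:37376132-37376381, plus strand): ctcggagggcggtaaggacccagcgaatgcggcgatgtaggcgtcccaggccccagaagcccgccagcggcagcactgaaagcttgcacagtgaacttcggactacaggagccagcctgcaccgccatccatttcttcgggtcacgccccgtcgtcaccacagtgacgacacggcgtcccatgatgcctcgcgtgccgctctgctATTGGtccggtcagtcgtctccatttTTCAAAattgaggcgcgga
Top2a (chr11:99024190-99024439, minus strand): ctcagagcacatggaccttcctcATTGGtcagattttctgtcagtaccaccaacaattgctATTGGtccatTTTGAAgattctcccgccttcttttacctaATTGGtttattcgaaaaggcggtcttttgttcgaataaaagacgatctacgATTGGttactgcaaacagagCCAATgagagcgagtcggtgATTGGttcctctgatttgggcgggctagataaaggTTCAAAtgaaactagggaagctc
Mki67 (chr7:135716380-135716629, minus strand): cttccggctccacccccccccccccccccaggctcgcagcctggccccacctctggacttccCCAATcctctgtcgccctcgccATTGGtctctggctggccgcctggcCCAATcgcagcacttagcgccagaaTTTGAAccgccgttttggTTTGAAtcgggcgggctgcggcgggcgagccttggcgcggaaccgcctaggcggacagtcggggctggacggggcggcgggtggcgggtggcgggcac
Tyms (chr5:30073626-30073875, minus strand): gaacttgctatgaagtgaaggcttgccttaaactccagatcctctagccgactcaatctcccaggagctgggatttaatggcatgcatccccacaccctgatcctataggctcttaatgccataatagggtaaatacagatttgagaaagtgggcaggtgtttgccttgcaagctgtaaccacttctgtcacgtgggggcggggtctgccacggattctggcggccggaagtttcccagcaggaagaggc
Ccnb2 has CCAAT 87, 54 and 21 bases before its start and TTTGAA 167 bases before it. Top2a has 6 CCAAT boxes in the printed stretch and Mki67 has 3. The printed Tyms stretch has no match, and its 1 match in the searched window, to TTTNNCGC, lies after the start. Presence of a motif and direction of change did not go together in every gene: the Nusap1 window holds none of the motifs and Nusap1 rose, and the Cenpa window holds the CCAAT box and both homology region variants, while Cenpa fell. The E2f1 window lay wholly inside an annotated exon of E2f1 (250 of 250 bases before the RefSeq start), so it is not shown.

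Among the G1 and G1/S cyclins, Ccnd1, which encodes the growth factor-responsive partner of CDK4 and CDK6, was the 1 gene that rose in both sources. Ccnd1 stood at 98.2, 93.4 and 186 CPM at iPSC-derived day 0, 64.8, 54.6 and 84.5 at day 3, 199.96, 161 and 275 at day 6 and 243, 141 and 374 at day 12. The day 6 libraries all lay above those of day 3, and day 12 overlapped day 0 through its replicate 2. From day 0 to day 12 it rose in iPSC-derived cells (log2 fold change 1.10 ± 0.30 SE, adjusted p = 0.0085), and from day 3 to day 6 as well (log2 fold change 1.4999 ± 0.30 SE, adjusted p = 0.0099), though neither call held in every fit without 1 library. Ccnd1 in bone marrow-derived cells stood at 13.3, 6.99 and 9.88 CPM at day 0, 80.6, 62.04 and 65.4 at day 3, 204, 198 and 258 at day 6 and 334, 371 and 307 at day 12. No 2 of these days overlapped. The rise was 2.70 ± 0.33 SE on the log2 scale by day 3 and 4.89 ± 0.35 SE by day 12 (adjusted p = 1.5e-09). At day 12 the difference between the sources, -0.22 ± 0.29, was not called (adjusted p = 0.74). Reads of Ccnd1 cannot be told apart by strand, and 23.4% of its exon bases are shared with another gene, LTO1.

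Both E cyclins rose by day 12 in bone marrow-derived cells. Ccne1, an activator of CDK2 at the start of S phase, stood at 0, 3.44 and 1.63 CPM at bone marrow-derived day 0, 8.71, 11.6 and 7.88 at day 3, 15.7, 13.5 and 22.4 at day 6 and 34.6, 30.04 and 28.8 at day 12. Again no 2 days overlapped, and it rose by day 12 (log2 fold change 4.01 ± 0.61 SE, adjusted p = 2.5e-05). In iPSC-derived cells Ccne1 was at 10.5, 11.4 and 24.9 CPM at day 0, 4.63, 9.26 and 3.50 at day 3, 6.28, 13.8 and 11.3 at day 6 and 15.5, 12.2 and 21.7 at day 12, and its changes from day 0 were between -1.24 and 0.18 with no call. Ccne2, the second E cyclin, was at 4.48, 2.87 and 2.75 CPM at bone marrow-derived day 0 and 19.1, 15.3 and 20.9 at day 12, with 2.90, 0.513 and 3.31 at day 3 and 9.89, 5.82 and 5.45 at day 6 in between. The 3 day 12 libraries lay above all others of that source, and it rose at day 12 alone (log2 fold change 2.27 ± 0.50 SE, adjusted p = 0.0015). In iPSC-derived libraries Ccne2 ran from 2.60 to 9.79 CPM at day 0 and from 7.96 to 12.2 CPM at day 12, with no call.

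Of the 2 transcription factors, E2f1 gave no call and Foxm1 rose in bone marrow-derived cells. E2f1, an activator of S-phase genes that is itself held by the retinoblastoma protein, was at 39.7, 51.9 and 56.7 CPM at bone marrow-derived day 0, 44.98, 49.6 and 59.99 at day 3, 47.7, 61.5 and 50.9 at day 6 and 44.2, 51.5 and 37.5 at day 12. In iPSC-derived cells it was at 38.2, 25.2 and 52.5 CPM at day 0, 35, 31.5 and 31.7 at day 3, 44.8, 56.9 and 37.6 at day 6 and 47.5, 25.2 and 51.3 at day 12. The bone marrow-derived days all overlapped each other, while in iPSC-derived cells day 3 lay below day 6 and below bone marrow-derived day 3. E2f1 was called in none of the 17 comparisons, whose estimates lay between -0.46 and 0.53. For the bone marrow-derived change to day 12 the estimate was not called (log2 fold change -0.33 ± 0.25 SE, adjusted p = 0.37).

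Foxm1, the forkhead factor that drives G2 and mitotic genes, stood at 1.37, 0 and 1.38 CPM at bone marrow-derived day 0, 1.67, 2.97 and 3.09 at day 3, 10.8, 11.99 and 11.5 at day 6 and 15.4, 37.5 and 44.7 at day 12. Each day lay wholly above the one before, and it rose by day 6 and by day 12 (log2 fold change 4.98 ± 0.65 SE, adjusted p = 3.4e-06). Foxm1 in iPSC-derived cells went from 12.1, 21.3 and 26.6 CPM at day 0 to 9.35, 7.56 and 2.99 at day 3, 8.98, 6.17 and 9.54 at day 6 and 14.5, 6.78 and 20.6 at day 12, where replicates 1 and 3 overlapped day 0. Its day 6 change was not called (log2 fold change -1.23 ± 0.53 SE, adjusted p = 0.089).

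The 4 genes of DNA synthesis and chromatin copying all rose by day 12 in bone marrow-derived cells and none was called lower from day 0 in iPSC-derived cells at any day. Top2a, the topoisomerase that untangles sister chromatids, was at 10.2, 12.95 and 4.50 CPM at bone marrow-derived day 0, 23.1, 39.1 and 31.99 at day 3, 99.8, 74.3 and 112 at day 6 and 230.2, 215 and 262 at day 12. The 4 days were separate and rising (log2 fold change 4.50 ± 0.43 SE, adjusted p = 1.2e-07). Top2a in iPSC-derived cells was at 80.6, 61.2 and 112 CPM at day 0, 56.7, 57.3 and 25.3 at day 3, 45.04, 35.6 and 63.8 at day 6 and 38.8, 61.8 and 113 at day 12, and at day 12 it was lower than in bone marrow-derived cells (log2 fold change -1.52 ± 0.37 SE, adjusted p = 0.0095).

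Rrm2, the regulated subunit of ribonucleotide reductase, stood at 1.25, 5.16 and 1.502 CPM at bone marrow-derived day 0, 9.60, 10.9 and 6.86 at day 3, 36.7, 32.7 and 52.97 at day 6 and 87.04, 80.9 and 106 at day 12. Its days did not overlap either (log2 fold change 4.92 ± 0.64 SE, adjusted p = 7.2e-06). In iPSC-derived cells Rrm2 was at 24.3, 23.9 and 77.8 CPM at day 0, 31.4, 30.8 and 15.97 at day 3, 25.2, 27.7 and 30.9 at day 6 and 17.9, 13.3 and 67.1 at day 12, so replicate 3 was more than the other 2 together at both ends of the time course.

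Tyms, thymidylate synthase, had the smallest rise of the 34 at day 12, from 7.97, 10.9 and 11.8 CPM at bone marrow-derived day 0 through 3.01, 7.38 and 9.71 at day 3 and 18.1, 15.8 and 24.1 at day 6 to 24.8, 55.1 and 43.2 CPM (log2 fold change 1.84 ± 0.42 SE, adjusted p = 0.0019). For Tyms the day 3 libraries were not above those of day 0. In iPSC-derived cells Tyms was at 13.2, 18.7 and 20.7 CPM at day 0, 11.9, 16.4 and 15.1 at day 3, 12.4, 9.19 and 17.5 at day 6 and 7.73, 11.1 and 28.2 at day 12, and the sources overlapped at day 6 but not at day 0.

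Uhrf1, which keeps DNA methylation through replication, stood at 5.35, 5.27 and 2.002 CPM at bone marrow-derived day 0, 12.4, 6.15 and 6.86 at day 3, 25.4, 24.7 and 38.8 at day 6 and 57.8, 77.2 and 57.99 at day 12. It rose by day 6 and day 12 (log2 fold change 3.76 ± 0.41 SE, adjusted p = 2.7e-07) with no overlap between days. Uhrf1 in iPSC-derived cells was at 31.8, 26.9 and 52.9 CPM at day 0, 17.7, 23.5 and 10.9 at day 3, 28.2, 27.1 and 37.6 at day 6 and 37.1, 21.5 and 58.3 at day 12. It was 1 of 5 genes whose mean in that source was not highest at day 0.

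The S and M cyclins and CDK1 all rose in bone marrow-derived cells by day 6 and all fell in iPSC-derived cells by day 6. Ccna2, the cyclin of S phase and G2, went from 72.5, 72.9 and 113 CPM at iPSC-derived day 0 to 36.6, 40.8 and 12.98 at day 3, 14.03, 22.5 and 27.2 at day 6 and 14.9, 18.04 and 68.99 at day 12. Day 0 lay above every later library, and the fall was called at day 6 (log2 fold change -1.97 ± 0.53 SE, adjusted p = 0.0098). Ccna2 in bone marrow-derived cells was at 0.747, 2.87 and 0.125 CPM at day 0, 6.03, 9.64 and 12.8 at day 3, 27.1, 27.9 and 38.3 at day 6 and 112, 93.4 and 98.8 at day 12. It rose by 6.13 ± 0.70 SE on the log2 scale (adjusted p = 1.9e-06).

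Cdk1, the kinase these cyclins activate, was already present at bone marrow-derived day 0. It stood at 18.1, 17.8 and 19.4 CPM there, 27.9, 23.7 and 25.6 at day 3, 46.9, 42.6 and 60.3 at day 6 and 70.6, 105 and 93.1 at day 12 (log2 fold change 2.11 ± 0.30 SE, adjusted p = 1.1e-05). Each day again lay above the last. Cdk1 in iPSC-derived cells went from 74.4, 71.99 and 112 CPM at day 0 to 44.5, 44.6 and 30.5 at day 3 and 38.6, 22.7 and 57.4 at day 6 (log2 fold change -1.07 ± 0.29 SE, adjusted p = 0.0076), and was at 45.9, 40.7 and 93 at day 12. Only replicate 3 of day 12 reached the day 0 range.

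Ccnb1, a B cyclin of mitotic entry, stood at 69.3, 55.9 and 94.05 CPM at iPSC-derived day 0, 30.2, 22.5 and 13.1 at day 3, 10.2, 18.6 and 19.9 at day 6 and 16.01, 24.7 and 53.1 at day 12. Day 0 lay above all later libraries, with falls at day 3 (log2 fold change -1.55 ± 0.46 SE, adjusted p = 0.020) and day 6 (log2 fold change -2.12 ± 0.47 SE, adjusted p = 0.0020). Ccnb1 in bone marrow-derived cells was at 0.747, 0.458 and 4.50 CPM at day 0, 8.15, 10.5 and 8.34 at day 3, 16, 20.2 and 26.6 at day 6 and 68.2, 47.2 and 59.4 at day 12. The days were separate (log2 fold change 4.76 ± 0.57 SE, adjusted p = 1.8e-06).

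Ccnb2, the other B cyclin, was almost absent at bone marrow-derived day 0. It is on chromosome 9 at 70407689 to 70421554 (minus strand, GRCm38). Ccnb2 held 2 counts over the 3 bone marrow-derived day 0 libraries, 0, 0.115 and 0.125 CPM, then 5.69, 6.36 and 6.51 CPM at day 3, 14.1, 17.8 and 24.5 at day 6 and 43.4, 67.1 and 61.2 at day 12. The ratio of library-scaled counts to day 0 was 72.5 (95% interval 19.8 to 603) at day 3, 211 (95% interval 58 to 1750) at day 6 and 631 (95% interval 174 to 5220) at day 12. These exact intervals, and all others below, cover counting error only. In iPSC-derived cells Ccnb2 went from 63.1, 65.7 and 108 CPM at day 0 to 31.4, 32.6 and 10.5 at day 3, 15.01, 11.8 and 24.9 at day 6 and 15.8, 11.7 and 47.6 at day 12. Every later library lay below day 0, and it was the largest of the 8 falls at day 12 (log2 fold change -1.57 ± 0.42 SE, adjusted p = 0.0084).

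**Figure D3:**
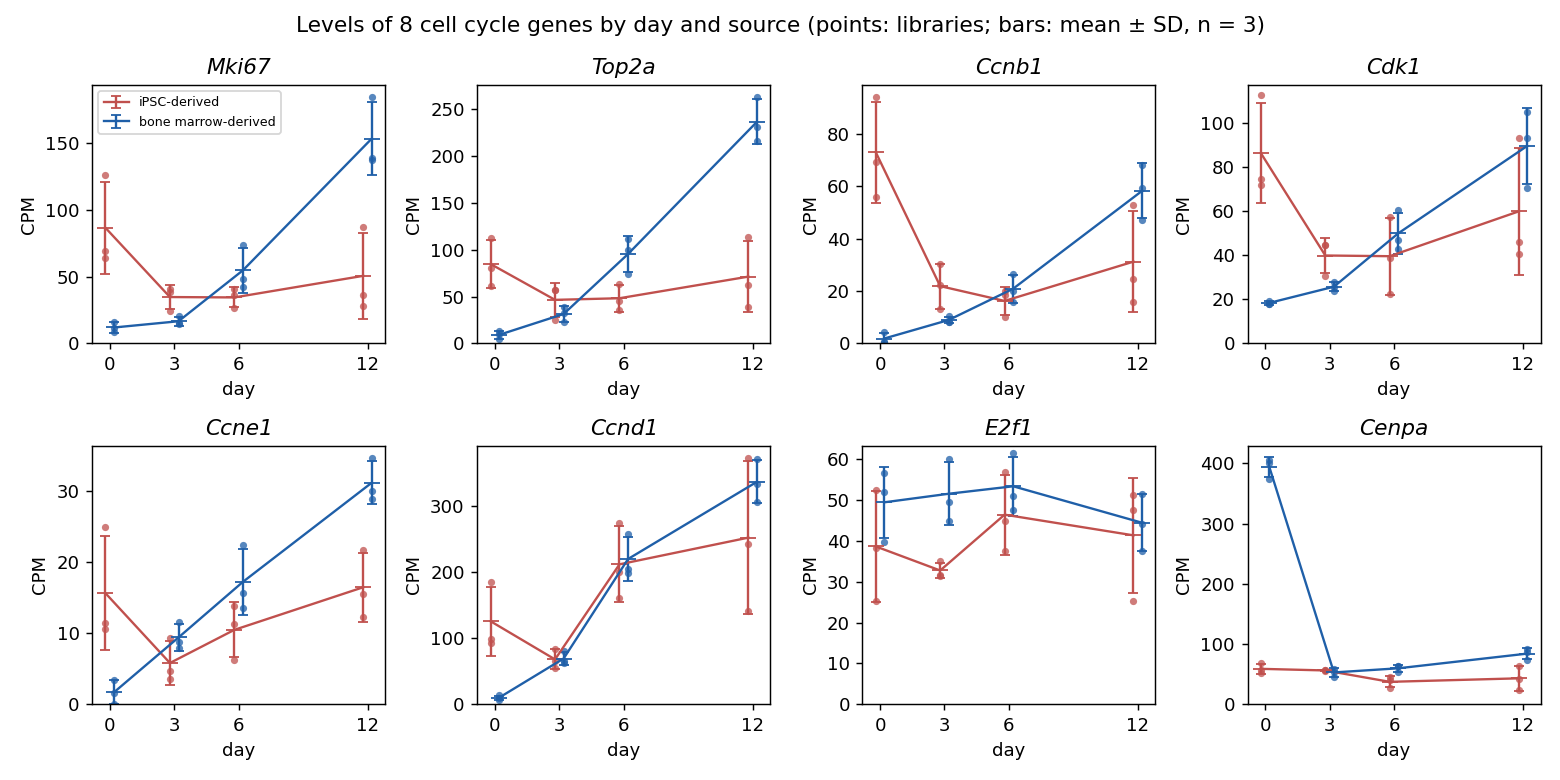
CPM of 8 genes by day in iPSC-derived (red) and bone marrow-derived (blue) macrophages, with a point for each library and the mean ± SD of 3. Mki67, Top2a, Ccnb1, Cdk1, Ccne1 and Ccnd1 climb from day 0 to day 12 in bone marrow-derived cells, E2f1 stays between 37.5 and 61.5 CPM in them, and Cenpa drops from 374 to 405 CPM at day 0 to 45.1 to 91.8 CPM afterwards.

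The 6 mitotic kinase and checkpoint genes all rose by day 12 in bone marrow-derived cells, and 5 of them fell by day 6 in iPSC-derived cells. Plk1, a kinase of centrosome maturation and mitotic exit, went from 39.1, 55.01 and 82.7 CPM at iPSC-derived day 0 to 29.6, 20.3 and 8.96 at day 3, 11.7, 16.1 and 12.97 at day 6 and 18.7, 13.6 and 40.04 at day 12. Replicate 3 of day 12 just overlapped day 0, and the gene fell at day 6 (log2 fold change -2.08 ± 0.41 SE, adjusted p = 0.00059) and day 12 (log2 fold change -1.20 ± 0.40 SE, adjusted p = 0.030). Plk1 in bone marrow-derived cells was at 0.872, 1.15 and 1.13 CPM at day 0, 8.37, 3.49 and 6.97 at day 3, 12.3, 10.4 and 24.2 at day 6 and 49.5, 61.04 and 46.1 at day 12. Its rise of 5.45 ± 0.53 SE (adjusted p = 4.5e-08) came with no overlap between days.

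Aurka, the spindle pole kinase, stood at 30.7, 37.1 and 62.5 CPM at iPSC-derived day 0, 16.4, 11.1 and 7.31 at day 3, 10.1, 4.28 and 12.9 at day 6 and 11.9, 21.7 and 26.02 at day 12. All day 0 libraries were above all later ones, and the fall was called at day 3 (log2 fold change -1.72 ± 0.39 SE, adjusted p = 0.0026) and day 6 (log2 fold change -2.20 ± 0.40 SE, adjusted p = 0.00023). Aurka in bone marrow-derived cells went from 1.62, 2.87 and 2.88 CPM at day 0 to 6.81, 3.38 and 6.51 at day 3, 19.8, 13.7 and 22.9 at day 6 and 41.9, 29.5 and 43 at day 12 (log2 fold change 3.77 ± 0.45 SE, adjusted p = 8.2e-07). It was also among the 7 that rose from day 3 to day 6 (log2 fold change 1.70 ± 0.41 SE, adjusted p = 0.043).

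Aurkb, the kinase of the chromosomal passenger complex, was at 26.04, 25.4 and 52.1 CPM at iPSC-derived day 0, 12.5, 17.1 and 9.58 at day 3, 13.9, 15.2 and 11.5 at day 6 and 23.1, 27.95 and 32.5 at day 12. It fell by day 6 (log2 fold change -1.31 ± 0.29 SE, adjusted p = 0.0017) and overlapped day 0 again at day 12. Aurkb in bone marrow-derived cells stood at 5.85, 7.91 and 7.01 CPM at day 0, 9.26, 8.10 and 9.83 at day 3, 14.6, 22.1 and 30.9 at day 6 and 45.8, 58.2 and 57.99 at day 12 (log2 fold change 2.79 ± 0.31 SE, adjusted p = 3.2e-07). The days were separate there.

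Birc5 encodes survivin, a partner of Aurora B. It went from 29.3, 35.1 and 64.5 CPM at iPSC-derived day 0 to 16.7, 15.2 and 9.37 at day 3, 11.2, 7.55 and 22.2 at day 6 and 10.5, 9.15 and 34.5 at day 12, with a fall at day 6 (log2 fold change -1.60 ± 0.54 SE, adjusted p = 0.035). Birc5 in bone marrow-derived cells was at 0.996, 4.93 and 0.501 CPM at day 0, 5.58, 9.23 and 5.48 at day 3, 14.1, 15.9 and 16.5 at day 6 and 31.3, 53.8 and 60.3 at day 12 (log2 fold change 4.31 ± 0.64 SE, adjusted p = 2.6e-05). Its bone marrow-derived days did not overlap.

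The checkpoint kinase gene Bub1 was called in iPSC-derived cells at day 6 and its relative Bub1b was not. Bub1b, which encodes BUBR1, was at 33.7, 28.3 and 52.1 CPM at iPSC-derived day 0, 26.1, 30.4 and 15.5 at day 3, 10.5, 17.7 and 23.3 at day 6 and 27.5, 33.5 and 42.8 at day 12. Day 6 lay below day 0, but its change was the 1 of the 6 that was not called (log2 fold change -1.10 ± 0.54 SE, adjusted p = 0.14). Bub1b in bone marrow-derived cells stood at 0.623, 17.8 and 5.76 CPM at day 0, where the libraries spread widely, 9.04, 15.3 and 11.8 at day 3, 20.4, 26.7 and 30.9 at day 6 and 99.7, 75.4 and 73.8 at day 12 (log2 fold change 3.19 ± 0.58 SE, adjusted p = 0.00031). Bub1 ranged from 20.8 to 37.3 CPM at iPSC-derived day 0 and from 8.74 to 15.6 CPM at day 6 (log2 fold change -1.44 ± 0.49 SE, adjusted p = 0.034). The difference between these 2 genes was not tested.

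At the kinetochore, Cenpa went against the other genes. It encodes the histone H3 variant that marks centromeres, and it is on chromosome 5 at 30666777 to 30674830 (plus strand, GRCm38). Cenpa stood at 405, 400.4 and 374 CPM at bone marrow-derived day 0, 59.3, 45.1 and 53.9 at day 3, 63.3, 52.7 and 62.99 at day 6 and 73.9, 86.5 and 91.8 at day 12. The day 0 libraries lay far above all others, and among the later days the day 12 libraries were the highest. It fell by day 3 (log2 fold change -2.98 ± 0.24 SE, adjusted p = 1.9e-09), by day 6 (log2 fold change -2.85 ± 0.24 SE, adjusted p = 3.7e-09) and by day 12 (log2 fold change -2.40 ± 0.23 SE, adjusted p = 3.5e-08). Cenpa in iPSC-derived cells was at 51.1, 57.2 and 68.1 CPM at day 0, 57.1, 56.5 and 54.6 at day 3, 40.2, 26.8 and 44.5 at day 6 and 42.2, 23.2 and 63.6 at day 12, with a fall at day 6 (log2 fold change -0.61 ± 0.23 SE, adjusted p = 0.049). At day 0 it was the 1 gene lower in iPSC-derived cells (log2 fold change -2.81 ± 0.23 SE, adjusted p = 1.3e-09). Its annotated exons share 0 bases with another gene.

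Cenpf, a large protein of the outer kinetochore, was at 0, 0 and 0.876 CPM at bone marrow-derived day 0, 2.57, 6.87 and 2.74 at day 3, 13, 10.6 and 28.8 at day 6 and 58.7, 37.9 and 36.1 at day 12. From near 0 each day lay above the last (log2 fold change 7.04 ± 0.80 SE, adjusted p = 6.7e-07). Cenpf in iPSC-derived cells stood at 20.5, 39.3 and 25.7 CPM at day 0, 15.5, 14.8 and 7.83 at day 3, 13.4, 4.15 and 9.82 at day 6 and 9.05, 9.74 and 25.1 at day 12 (log2 fold change -1.58 ± 0.55 SE, adjusted p = 0.037 for day 6).

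Knl1, the scaffold that recruits BUB proteins, had the largest called rise from day 3 to day 6 in bone marrow-derived cells. It stood at 0.125, 0.573 and 2.13 CPM at day 0, 2.01, 0.718 and 1.49 at day 3, 6.78, 9.59 and 8.36 at day 6 and 30.3, 29.9 and 34.6 at day 12. Days 0 and 3 overlapped and later days did not (log2 fold change 2.49 ± 0.57 SE, adjusted p = 0.034 for day 6 against day 3). Knl1 in iPSC-derived cells was at 7.93, 9.06 and 13.9 CPM at day 0, 4.72, 5.22 and 4.22 at day 3, 3.94, 2.77 and 3.72 at day 6 and 2.32, 7.45 and 13.2 at day 12, below every bone marrow-derived library of day 12 (log2 fold change -1.84 ± 0.52 SE, adjusted p = 0.022). Cenpe, a kinetochore motor, ranged from 4.63 to 10.2 CPM at bone marrow-derived day 0 and from 46.2 to 53.98 CPM at day 12 (log2 fold change 2.68 ± 0.35 SE, adjusted p = 3.6e-06), and it fell in iPSC-derived cells at days 3, 6 and 12.

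All 5 spindle genes rose by day 6 in bone marrow-derived cells. Tpx2, which activates Aurora A on spindle microtubules, was at 3.24, 2.52 and 4.38 CPM at bone marrow-derived day 0, 13.6, 9.84 and 12.6 at day 3, 18.8, 19.7 and 30.04 at day 6 and 65.4, 57.2 and 55.5 at day 12. Its 4 days did not overlap, and it was the only gene called from day 6 to day 12 (log2 fold change 1.34 ± 0.29 SE, adjusted p = 0.031). Tpx2 in iPSC-derived cells went from 63.3, 57.05 and 53.2 CPM at day 0 to 32.3, 24.1 and 13.8 at day 3, 23.9, 29.7 and 28.6 at day 6 and 25.1, 19.6 and 47 at day 12. It lay below day 0 in every later library and fell at day 3 (log2 fold change -1.11 ± 0.28 SE, adjusted p = 0.0062).

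Kif11, the motor that pushes spindle poles apart, stood at 2.12, 2.64 and 0.375 CPM at bone marrow-derived day 0, 2.90, 10.9 and 2.74 at day 3, 20.1, 19.5 and 24.97 at day 6 and 64.6, 72.2 and 54.1 at day 12. Days 0 and 3 came close to overlapping, days 6 and 12 were each above all earlier libraries, and by day 12 it had risen by 5.03 ± 0.62 SE on the log2 scale (adjusted p = 2.1e-06). Kif11 in iPSC-derived cells was at 20.5, 25.6 and 29.3 CPM at day 0, 20.1, 13.5 and 6.49 at day 3, 6.03, 8.56 and 11.2 at day 6 and 6.96, 15.6 and 30.97 at day 12, and it was lower there than in bone marrow-derived cells at day 12 (log2 fold change -1.63 ± 0.51 SE, adjusted p = 0.041).

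Dlgap5, a spindle-stabilising protein, had the largest called fall by day 3 in iPSC-derived cells. It went from 26.2, 12.6 and 22.7 CPM at day 0 to 6.02, 7.13 and 2.47 at day 3, 5.29, 4.53 and 5.91 at day 6 and 3.31, 2.46 and 15.9 at day 12. Only replicate 3 of day 12 reached the day 0 range (log2 fold change -1.78 ± 0.52 SE, adjusted p = 0.016 for day 3). Dlgap5 in bone marrow-derived cells was at 0.498, 1.72 and 0.751 CPM at day 0, 3.46, 3.69 and 4.11 at day 3, 5.78, 6.68 and 7.98 at day 6 and 19.5, 13.3 and 18.4 at day 12 (log2 fold change 3.90 ± 0.60 SE, adjusted p = 2.6e-05). The bone marrow-derived days were again separate.

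Hmmr and Nusap1, both microtubule-binding, started from few counts at bone marrow-derived day 0, Nusap1 with 23 over the 3 libraries. Hmmr held 2 counts over the 3 day 0 libraries, and the ratio of library-scaled counts was 48.6 (95% interval 13.1 to 406) at day 3, 157 (95% interval 43 to 1300) at day 6 and 286 (95% interval 78.9 to 2360) at day 12. Nusap1 ranged from 0 to 1.74 CPM at day 0 and from 51.3 to 66.2 CPM at day 12 (log2 fold change 5.75 ± 0.66 SE, adjusted p = 6.6e-07). In iPSC-derived cells Hmmr fell by day 6 (log2 fold change -1.33 ± 0.39 SE, adjusted p = 0.014) and Nusap1 was not called (log2 fold change -1.18 ± 0.51 SE, adjusted p = 0.094).

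The 4 cytokinesis genes fell by day 6 in iPSC-derived cells and rose by day 12 in bone marrow-derived cells. Kif23, a motor of the central spindle, had the largest fall of all at day 6. It stood at 25.4, 33.96 and 30.3 CPM at iPSC-derived day 0, 14.4, 13.3 and 5.46 at day 3, 5.17, 6.29 and 6.10 at day 6 and 7.18, 5.51 and 21.4 at day 12. No later library reached day 0 (log2 fold change -2.30 ± 0.46 SE, adjusted p = 0.00053 for day 6). Kif23 in bone marrow-derived cells was at 8.84, 11.3 and 9.13 CPM at day 0, 2.23, 9.43 and 6.28 at day 3, 12.1, 11.99 and 24.1 at day 6 and 41.3, 41.2 and 46.6 at day 12, so days 0 and 3 overlapped and its rise was called at day 12 alone (log2 fold change 1.96 ± 0.44 SE, adjusted p = 0.0018). At day 6 it was lower in iPSC-derived cells (log2 fold change -1.35 ± 0.45 SE, adjusted p = 0.049), a call absent from 5 of the 6 fits that left out 1 library.

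Prc1, which bundles the microtubules of the midzone, showed the largest called gap between the sources at day 12. It was at 8.50, 8.56 and 20.3 CPM in iPSC-derived and 58.4, 59.8 and 67.5 CPM in bone marrow-derived day 12 libraries. These groups were far from overlapping (log2 fold change -2.11 ± 0.41 SE, adjusted p = 0.0011). Prc1 in iPSC-derived cells had been at 29.6, 20.8 and 40.6 CPM at day 0, 18.2, 15.4 and 6.90 at day 3 and 7.26, 7.43 and 14.1 at day 6, and in bone marrow-derived cells at 5.35, 2.29 and 5.26 CPM at day 0, 7.03, 10.4 and 6.97 at day 3 and 20.6, 12.5 and 32.95 at day 6. The bone marrow-derived days rose without overlap, and day 6 in iPSC-derived cells was below day 0 (log2 fold change -1.60 ± 0.41 SE, adjusted p = 0.0055). 

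Kif20a, another midzone motor, ranged from 0 to 2.64 CPM at bone marrow-derived day 0 and from 29.4 to 34.6 CPM at day 12 (log2 fold change 4.36 ± 0.59 SE, adjusted p = 5.5e-06). The exons of Kif20a share 33.2% of their bases with Cdc23 on the opposite strand, and counting did not use strand, so its reads are uncertain. Exons of Ccne2 (17.4%, with Ints8), Ccna2 (12.5%, with Exosc9) and Prc1 (11.1%, with Rccd1) overlap a gene on the opposite strand as well. Ect2, the exchange factor that activates RhoA at the cleavage furrow, ranged from 0.249 to 4.25 CPM at day 0 and from 34.95 to 45.01 CPM at day 12 (log2 fold change 4.24 ± 0.56 SE, adjusted p = 4.1e-06). Both fell by day 6 in iPSC-derived cells, Kif20a with a log2 fold change of -1.69 ± 0.50 SE and Ect2 with -1.64 ± 0.49 SE.

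The 2 genes of protein degradation at anaphase both fell by day 6 in iPSC-derived cells and rose by day 12 in bone marrow-derived cells. Cdc20, an activator of the anaphase-promoting complex, went from 48.9, 47.99 and 73.9 CPM at iPSC-derived day 0 to 30.6, 27.4 and 12.6 at day 3, 11.4, 14.7 and 21.3 at day 6 and 19.2, 17.4 and 43.2 at day 12. All later libraries lay below day 0 (log2 fold change -1.80 ± 0.38 SE, adjusted p = 0.00091 for day 6). Cdc20 in bone marrow-derived cells was at 5.11, 5.73 and 1.63 CPM at day 0, 11.1, 10.7 and 6.51 at day 3, 22.2, 18.2 and 27.4 at day 6 and 65.6, 58.4 and 63.2 at day 12 (log2 fold change 3.73 ± 0.42 SE, adjusted p = 3.8e-07). Those days did not overlap. Ube2c, the ubiquitin-conjugating enzyme of the same complex, ranged from 50.7 to 85.3 CPM at iPSC-derived day 0 and from 4.15 to 23.2 CPM at day 6 (log2 fold change -2.25 ± 0.59 SE, adjusted p = 0.0072). It rose in bone marrow-derived cells by day 12 (log2 fold change 5.24 ± 0.73 SE, adjusted p = 1.7e-05), and 22.8% of its exon bases are shared with Tnnc2.

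Of the general proliferation markers, Mki67, which encodes the Ki-67 antigen of cycling cells, went from 11.3, 16.2 and 8.38 CPM at bone marrow-derived day 0 to 14.96, 20.5 and 14.4 at day 3, 47.9, 42.5 and 73.8 at day 6 and 138, 137 and 184 at day 12. Days 0 and 3 overlapped, and days 6 and 12 were each above all earlier libraries (log2 fold change 3.50 ± 0.38 SE, adjusted p = 2.9e-07). Mki67 in iPSC-derived cells stood at 64.2, 68.8 and 126 CPM at day 0, 40.8, 38.6 and 24.6 at day 3, 36.2, 26.2 and 40.9 at day 6 and 28.3, 36.3 and 87.1 at day 12. It fell by day 6 (log2 fold change -1.28 ± 0.34 SE, adjusted p = 0.0076), and at day 12 replicate 3 overlapped day 0 while the other 2 libraries did not. Between the sources it was higher in iPSC-derived cells at day 0 (log2 fold change 2.78 ± 0.37 SE, adjusted p = 2.4e-06) and lower at day 12 (log2 fold change -1.40 ± 0.34 SE, adjusted p = 0.0085).

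Pimreg, a mitotic regulator of chromosome alignment, had 0 counts in all 3 bone marrow-derived day 0 libraries. It was at 1.56, 3.08 and 0.800 CPM at day 3, 8.78, 4.80 and 11.7 at day 6 and 16.04, 23.9 and 26.3 at day 12, which is at least 14.5-fold, at least 65.9-fold and at least 163-fold higher, against a floor of 3 counts over the group. In iPSC-derived cells Pimreg was at 29.8, 19.6 and 37.9 CPM at day 0, 7.22, 9.80 and 5.25 at day 3, 9.84, 2.52 and 10.7 at day 6 and 1.44, 5.34 and 20.3 at day 12. Day 0 was at least 229-fold higher than bone marrow-derived day 0. With genes at 0 placed at such bounds, the median rise of the 36 genes at bone marrow-derived day 12 was 4.31.

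Other genes of the same machinery, from lists that do not contain the 36, were counted in the same fit. Their counts are read against the shares of all tested genes, which were 14.7% higher and 9.08% lower at bone marrow-derived day 12, 14.3% and 11% at iPSC-derived day 6, and 14% and 10.7% at iPSC-derived day 12. Of 14 spindle checkpoint and kinetochore genes, 14 rose by day 12 in bone marrow-derived cells and 5 fell by day 6 in iPSC-derived cells, among them the checkpoint gene Mad2l1 (log2 fold change -1.36 ± 0.30 SE, adjusted p = 0.0015) and Zwint (log2 fold change -0.68 ± 0.13 SE, adjusted p = 0.00042). Of 14 spindle kinesin and midbody genes, 13 rose and 0 fell by bone marrow-derived day 12, 7 fell by iPSC-derived day 6, and 7 were lower in iPSC-derived cells at day 12 (4.74% of all genes). Racgap1, a RhoA regulator of the midbody, fell in iPSC-derived cells by day 6 (log2 fold change -1.78 ± 0.31 SE, adjusted p = 0.00015). Kif2c, a microtubule depolymerase, held 2 counts at bone marrow-derived day 0 and its count ratio at day 12 was 241 (95% interval 66.5 to 2000). Of 10 condensin, cohesin and separase genes 7 rose and 0 fell, and of 11 genes of mitotic entry and exit 8 rose and 0 fell by bone marrow-derived day 12, Cks1b, a CDK subunit, among them (log2 fold change 4.15 ± 0.46 SE, adjusted p = 2.7e-07). By iPSC-derived day 6, 1 of the 10 fell (10%, near the 11% of all genes), and 3 of the 11 fell (27.3%). By iPSC-derived day 3, 3 of the 10 (30%) and 1 of the 11 (9.09%) had fallen, beside 8.14% of all genes. The median log2 fold change at bone marrow-derived day 12 was 3.04 for the spindle checkpoint list, 3.04 for the kinesin list, 2.94 for the condensin list and 3.16 for the entry and exit list, beside 0.04 over all genes.

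Of 22 replication licensing and fork genes, 16 rose, 0 fell and 6 were not called by bone marrow-derived day 12, led by Mcm2, a subunit of the replicative helicase (log2 fold change 3.03 ± 0.23 SE, adjusted p = 9.3e-10). In iPSC-derived cells 3 of the 22 (13.6%) fell by day 6, beside 11% of all genes, among them Gmnn, a licensing inhibitor, and Pcna (log2 fold change -0.82 ± 0.23 SE, adjusted p = 0.0091). By day 12, 3 (13.6%) rose, beside 14% of all genes, and 0 fell, Mcm4 (log2 fold change 0.97 ± 0.23 SE, adjusted p = 0.0033) and Mcm2 (log2 fold change 0.70 ± 0.21 SE, adjusted p = 0.016) among the 3. Both iPSC-derived counts are near the shares of all genes. Of 5 nucleotide supply genes, 4 rose and 0 fell by bone marrow-derived day 12, such as the thymidine kinase Tk1 (log2 fold change 3.84 ± 0.39 SE, adjusted p = 9.7e-08), and 0 were called from day 0 in iPSC-derived cells at days 6 and 12. The 22 licensing and fork genes had a median log2 fold change of 2.17 at bone marrow-derived day 12 and -0.32 at iPSC-derived day 6, beside 0.04 and 0.09 over all genes.

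Regulators upstream of division were counted in further lists. Ccnd2, a second D cyclin, rose in bone marrow-derived cells by day 12 (log2 fold change 5.25 ± 0.50 SE, adjusted p = 3.5e-08). In iPSC-derived cells it fell by day 3 (log2 fold change -2.13 ± 0.42 SE, adjusted p = 0.00063) and was above day 0 by day 6 (log2 fold change 1.27 ± 0.39 SE, adjusted p = 0.018). The 6 genes of D cyclins and G1 kinases gave 3 rises and 0 falls by bone marrow-derived day 12, and 1 rise and 1 fall, Cdk4 (log2 fold change -0.77 ± 0.14 SE, adjusted p = 0.00016), by iPSC-derived day 6. Of 12 RB and E2F family genes, 6 (50%) rose and 1 (8.33%) fell by bone marrow-derived day 12, so the falls were near the 9.08% of all genes. The gene that fell was Rb1, the retinoblastoma brake on E2F (log2 fold change -1.22 ± 0.24 SE, adjusted p = 0.00039), while E2f7, with 0 counts at day 0, was at least 62-fold higher. In iPSC-derived cells Rb1 rose by day 12 (log2 fold change 0.68 ± 0.24 SE, adjusted p = 0.038), with Rbl2 as the other of 2 rises (16.7%, beside 14% of all genes) and 0 falls. Of 6 genes of the DREAM and MuvB complexes, 3 rose and 0 fell by bone marrow-derived day 12 (14.7% and 9.08% of all genes). Mybl2 was among the 3 (log2 fold change 4.17 ± 0.95 SE, adjusted p = 0.0020). In iPSC-derived cells 0 of the 6 were called by day 12.

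Of 7 tested CDK inhibitor genes, 2 (28.6%) rose and 1 (14.3%) fell by bone marrow-derived day 12, beside 14.7% and 9.08% of all genes. Cdkn1b, which encodes the inhibitor p27, fell (log2 fold change -1.19 ± 0.33 SE, adjusted p = 0.0099) and Cdkn1a, which encodes p21, rose (log2 fold change 0.82 ± 0.17 SE, adjusted p = 0.00071). In iPSC-derived cells 0 rose and 2 (28.6%, beside 10.7%) fell by day 12, Cdkn3 and Cdkn1c (log2 fold change -3.08 ± 1.02 SE, adjusted p = 0.029). The 10 p53 target genes gave 1 rise and 2 falls by bone marrow-derived day 12, and 2 rises and 3 falls by iPSC-derived day 12, beside 14.7% higher and 9.08% lower, and 14% and 10.7%, of all genes. On lists this short, 1 or 2 calls are no result about the list. Zmat3, a p53 target, rose in bone marrow-derived (log2 fold change 1.10 ± 0.20 SE, adjusted p = 0.00018) and in iPSC-derived cells (log2 fold change 1.02 ± 0.19 SE, adjusted p = 0.00036).

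Of 8 tested regulators of macrophage growth, 1 rose and 1 fell by bone marrow-derived day 12 (14.7% and 9.08% of all genes), and 2 rose and 2 fell by iPSC-derived day 12 (14% and 10.7%). Myc, the growth-driving transcription factor, fell in iPSC-derived and rose in bone marrow-derived cells. Myc stood at 84.02, 78.8 and 45.1 CPM at iPSC-derived day 0, 12.4, 20.2 and 9.89 at day 3, 15.1, 29.6 and 22.1 at day 6 and 23.8, 11.01 and 25.1 at day 12, and its change to day 12 was called lower (log2 fold change -1.68 ± 0.41 SE, adjusted p = 0.0040). Myc in bone marrow-derived cells was at 0, 1.72 and 0.501 CPM at day 0, 12.1, 9.74 and 7.43 at day 3, 12.7, 12.3 and 14.8 at day 6 and 21.01, 30.04 and 21.6 at day 12, and rose (log2 fold change 4.81 ± 0.54 SE, adjusted p = 4.1e-07). The iPSC-derived day 0 libraries lay above all later ones of that source, and the bone marrow-derived day 0 libraries lay below all later ones of theirs. Maf, which restrains macrophage self-renewal, was the 1 that fell by bone marrow-derived day 12 (log2 fold change -1.02 ± 0.28 SE, adjusted p = 0.0095).

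Marker levels of other cells differed by day as well. The summed level of 10 fibroblast markers was 0.498, 15.2 and 0.250 CPM at bone marrow-derived day 0, with 2, 8 and 1 of the markers detected. At day 12 it ran from 112 to 231 CPM, with Thy1 at 0 at both days. In iPSC-derived cells, where most of the cell cycle genes were lower after day 0, it ran from 3.40 to 26.4 CPM at day 0, 372 to 757 CPM at day 6 and 243 to 494 CPM at day 12, with Mfap5 at 0 throughout. In bone marrow-derived cells the ranges at day 0 and day 12 were 0 to 1.38 and 24.2 to 31.0 CPM for 10 neuron markers, with 4 of the 10 at 0 at day 0, and 14.2 to 22.01 and 59.5 to 81.5 CPM for 8 astrocyte markers. They were 51.8 to 71.2 and 91.0 to 121 CPM for 8 oligodendrocyte lineage markers, with Mog at 0 at day 12, and 59.3 to 80.1 and 95.9 to 114 CPM for 8 neural progenitor markers, with Sox1 at 0 at day 0. The neuron markers were highest at day 3, at 50.1 to 66.6 CPM, and so were the neural progenitor markers, at 121 to 133 CPM. In iPSC-derived cells the ranges at day 0 and day 12 were 1.72 to 3.06 and 14.6 to 24.7 CPM for the neuron markers, with Dcx, Nefl and Nefm at 0 at day 0, and 27.3 to 49.7 and 75.6 to 92.5 CPM for the astrocyte markers, with Gjb6 at 0 at day 0. They were 87.5 to 126 and 104 to 198 CPM for the oligodendrocyte lineage markers, with Olig2 and Sox10 at 0 at day 0, and 48.1 to 73.4 and 64.8 to 74.9 CPM for the neural progenitor markers, with Sox1 at 0 at both. The 10 macrophage markers summed to 7196 to 9977 CPM at iPSC-derived day 0, where the mean level of most cell cycle genes was the highest of that source, and to 10891 to 14177 CPM at day 6 and 16106 to 31624 CPM at day 12. The part of such cells in the changes of the cell cycle genes was not tested.

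Replicate 3 of iPSC-derived day 12 also held markers that its fellow libraries lacked. All 36 cell cycle genes were highest in replicate 3 of the 3 day 12 libraries. The 8 pluripotent stem cell markers summed to 23.8 CPM in it, against 1.44 and 3.56 CPM in replicates 1 and 2 and at most 3.83 CPM in the other 23 libraries. In it Nanog stood at 3.43, Zfp42 at 3.73, Utf1 at 4.84 and Esrrb at 2.32 CPM, and all 4 were at 0 in replicates 1 and 2 and in the 3 iPSC-derived day 0 libraries. Replicate 3 of iPSC-derived day 0, in which 30 of the 36 genes were highest, had 1.40 CPM of these markers. The macrophage markers summed to 16106 CPM in replicate 3 of day 12, against 22950 and 31624 CPM in replicates 1 and 2. Their part in the levels of day 12 was not tested, and the day 12 counts without replicate 3 are given above.

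**Figure D4:**
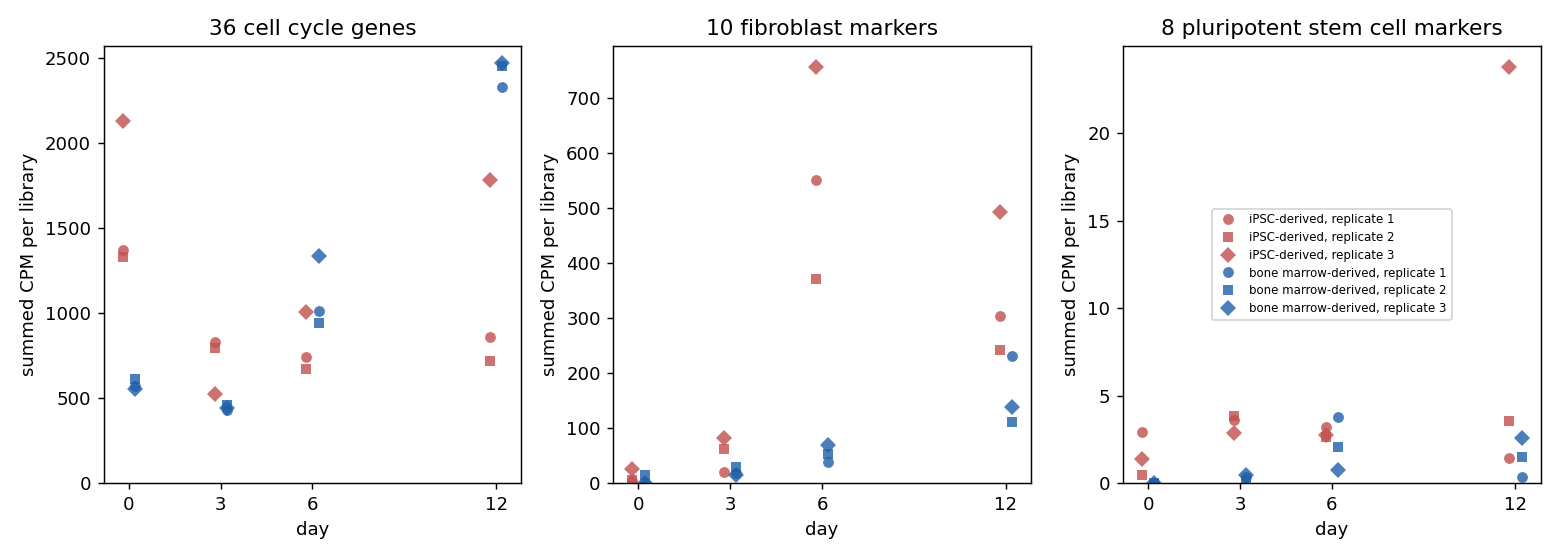
Summed CPM in each library of the 36 cell cycle genes (left), 10 fibroblast markers (middle) and 8 pluripotent stem cell markers (right), by day, with the symbol giving the replicate and the colour the source. The cell cycle sum of iPSC-derived day 12 replicate 3 is 1781 CPM against 857 and 720 CPM in replicates 1 and 2, and the same library stands alone at 23.8 CPM in the right panel.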

How the data were processed

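RNA from 24 macrophage libraries was measured by SMART-seq v2, per the labels' protocols. The deposited values are whole-number counts per gene that the authors made with STAR and featureCounts on mm10 (GRCm38), per the submitters' processing notes. The file header names featureCounts 1.5.0-p1 with GENCODE vM9 annotation, counting of read pairs and no use of strand. Gene symbols were matched by Ensembl identifier for 47224 of 47643 rows, and the 419 rows without one held 0.0635% of counts.

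CPM was computed from each library's total count (median 9020788) and TPM from the deposited exon lengths. Calls came from edgeR 4.0.16 (R 4.3.3) on the counts, with genes kept at a minimum count of 10 and a minimum total of 15, TMM scaling factors of 0.885 to 1.11, and 1 coefficient for each of the 8 groups, in 17 comparisons. Benjamini-Hochberg adjustment ran over 15000 genes. Each SE was derived from the test, as the absolute log2 fold change divided by the square root of its F statistic. The procedure was tested on simulated data. A gene with 0 counts over the 3 libraries of a group was set to a floor of 3 counts, and one with 1 to 3 counts got a ratio of counts with an exact 95% interval. The alternatives were RLE factors, no scaling factors, no count filter, fits of only the groups compared, a replicate block, DESeq2 1.42.0, and leaving out each library. A fit without 2 libraries together was added after seeing the data.

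The cell cycle genes, the other lists and the tests were chosen with earlier results of these data known. All 36 genes are described, with library values for genes that stand for a step of the cycle, for the largest called change in each comparison and for genes called against the others. From each other list up to 2 genes a direction with the lowest adjusted p, and genes called against their list, were named. One gene of the macrophage growth list is not reported here, and counts over that list leave it out. The p-values measure the spread between libraries, and what separates the replicates beyond their being called independent is not given in the sources used here.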

Additional observations from a re-analysis of the deposited data

Results flagged for a closer look

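The change from day 0 differed between the sources by edgeR's test of the difference itself (iPSC-derived minus bone marrow-derived), in which 3 libraries a group entered. It was lower in iPSC-derived cells for 27 of the 36 cell cycle genes at day 3, 32 at day 6 and 33 at day 12. For Cenpa, the centromeric histone gene, the same difference had the opposite sign and passed the test each time, at 3.10 on the log2 scale for day 3, 2.24 for day 6 and 2.05 for day 12. These 3 tests share the day 0 libraries of both sources.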

How the results depend on the processing

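No called gene among the 36 changed sign under any alternative run. Counts below are calls in the leading direction of each comparison, out of 36. In iPSC-derived cells, the 15 genes called at day 3 became 23 with no scaling factors, 24 with no count filter and 6 without the replicate 3 libraries of day 0 and day 12 together. The 8 at day 12 became 16 with no filter and 0 with only the 2 groups in the fit. The 1 from day 3 to day 6 became 0 with only the 2 groups, and the 0 from day 6 to day 12 became 6 with no filter, 1 with DESeq2 and 1 without both replicate 3 libraries. In bone marrow-derived cells, the 7 from day 3 to day 6 became 29 with no filter, 19 with DESeq2 and 30 with only the 2 groups. The 1 from day 6 to day 12 became 2 with RLE factors, 25 with no filter, 10 with DESeq2 and 33 with only the 2 groups. Between the sources, the 18 at day 3 became 9 with no scaling factors, the 1 at day 6 became 6 with no filter and 2 with only the 2 groups, and the 9 at day 12 became 14 with no scaling factors, 19 with no filter and 21 without both replicate 3 libraries. The cause of these shifts was not tested.

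Correlations between the deviations of same-numbered libraries ran from -0.076 to 0.161 over all pairs of groups. They were highest among iPSC-derived days in co-culture, at -0.054, 0.139 and 0.159 for replicates 1, 2 and 3 of days 3 and 6, 0.098, 0.047 and 0.161 for days 3 and 12, and -0.038, 0.121 and 0.081 for days 6 and 12. For differently numbered libraries of these 3 pairs of days the medians were -0.042, -0.07 and -0.01. Library identifiers run by replicate in the iPSC-derived set and by day in the bone marrow-derived set. No pair of groups was above 0.1 for all 3 numbers and the labels name no shared batch, so the numbers were not taken to pair the libraries. With the replicate block, the day 6 to day 12 count in bone marrow-derived cells was 4 and the day 6 count between sources was 0, since Kif23 was not called (adjusted p = 0.055).

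When each library was left out in turn, the counts ran from 3 to 13 at iPSC-derived day 3, 14 to 23 at day 6 and 0 to 18 at day 12, and from 0 to 1 from day 3 to day 6. They ran from 0 to 5 for bone marrow-derived day 6 against day 3 and 0 to 1 for day 12 against day 6. Between the sources they ran from 7 to 21 at day 3, 0 to 1 at day 6 and 1 to 21 at day 12.

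Without scaling factors the median over all genes moved by -0.30 to 0.17 on the log2 scale, depending on the comparison. For iPSC-derived day 3 the calls over all genes went from 1686 higher and 1221 lower to 1259 higher and 2082 lower, and between the sources at day 12 from 754 and 711 to 416 and 1235. Depth limited genes near 0 at bone marrow-derived day 0, where folds are bounds or wide count ratios.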
